A study of Mus musculus with 28 samples.

Results

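The 10 genes described here mark the endothelium of brain vessels and its barrier: Cldn5, Cdh5 and Pecam1 of the cell junctions, the transporters Slc2a1, Slc7a5, Mfsd2a and Abcb1a, and the vessel identity genes Flt1, Tek and Ly6c1. They were picked by symbol as junction, transporter and identity genes, from a table of 53801 genes. All 10 were counted in each of the 28 libraries and passed the filter on low counts, which left 11123 genes for testing.

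RNA was counted in 1 hemibrain of each of 28 C57Bl/6J mice, 7 in each of 4 groups. The mice were either wildtype (WT) or lacked both Grn and Tmem106b (double knockout, DKO), and each genotype received saline or AAV(L):bPGRN, a vector directed to the liver. Its product joins 8D3, an scFv that binds the mouse transferrin receptor, to human progranulin, and it was given through the tail vein at 1.3e+13 vector genomes per kg at 6 weeks of age. Brains were taken 9 to 10 weeks later, at 15 to 16 weeks of age, after perfusion with PBS; the olfactory bulb was left out and the cerebellum kept. The WT groups held 4 males and 3 females each and the DKO groups 3 males and 4 females each. All 4 groups were perfused and injected alike, and no group had a vector without the 8D3 fusion.

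Endothelial cells of brain vessels are sealed by tight junctions, carry few transport vesicles and rely on carriers for glucose, amino acids and lipids. Their receptors for VEGF and angiopoietins are widely used as markers of the vessel wall. The transferrin receptor, which 8D3 binds, is itself abundant on these cells, so the vector's product was made to meet the barrier from the blood side.

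Library totals ran from 1164637 to 2389815 tags. Tmem106b, which checks the genotype labels, averaged 119 and 121 CPM (tags scaled to a common library total) in the WT saline and WT AAV groups. It averaged 12.8 and 9.63 CPM in the DKO groups, saline first, with no overlap between genotypes. DKO saline replicate 2 had a low striatal gene score of -1.48, and WT saline replicate 6 and WT AAV replicate 7 low cerebellar scores of -2.66 and -1.69. A score is the mean log2 difference of the marker list from the WT saline mean. Scores beyond 1 in size were not limited to these libraries. Cerebellar scores reached 1.04 in WT AAV, and olfactory bulb scores 1.39 in WT saline, 1.48 in WT AAV and 1.35 in DKO saline. Pituitary scores passed 1 in size in all 4 groups, from -2.82 to 5.51. The later check without 3 libraries rests on the low striatal and cerebellar scores alone. The mitochondrial share of tags was 18.88 to 21.06% in WT saline and 12.63 to 18.98% in DKO saline, and median totals were 1368072 and 1708860 tags. One tag is read per molecule, so CPM of different genes need no correction for length when set side by side. How fully the tags of each gene were captured and assigned was not tested, so the order of levels is an order of tags.

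The levels of the 10 genes spanned a wide range in WT saline hemibrain. Flt1, the VEGF receptor 1 gene, was the most abundant at 134 ± 19.3 CPM (SD, n = 7), followed by Slc2a1, the glucose carrier GLUT1, at 102 ± 20.3 and Ly6c1, a surface antigen of brain endothelium, at 67.3 ± 15.6. Mfsd2a, a carrier of lysophospholipids that bear omega-3 fatty acids, stood at 38.3 ± 8.67, and Slc7a5, the light chain of the large neutral amino acid carrier LAT1, at 36.6 ± 11.1. Next came the drug efflux pump gene Abcb1a at 27.8 ± 9.28 and Pecam1 at 21.3 ± 8.04. Tek, the receptor of the angiopoietins, stood at 11.4 ± 2.86, Cdh5, the VE-cadherin gene, at 8.10 ± 2.61 and Cldn5, the main claudin of the brain tight junction, at 7.65 ± 1.80. The ranges of every pair of neighbours in this order overlapped, and Slc7a5 against Mfsd2a and Cdh5 against Cldn5 could not be ordered within mice: Mfsd2a was above Slc7a5 in 3 of 7 and Cdh5 above Cldn5 in 3 of 7.

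**Figure D1:**
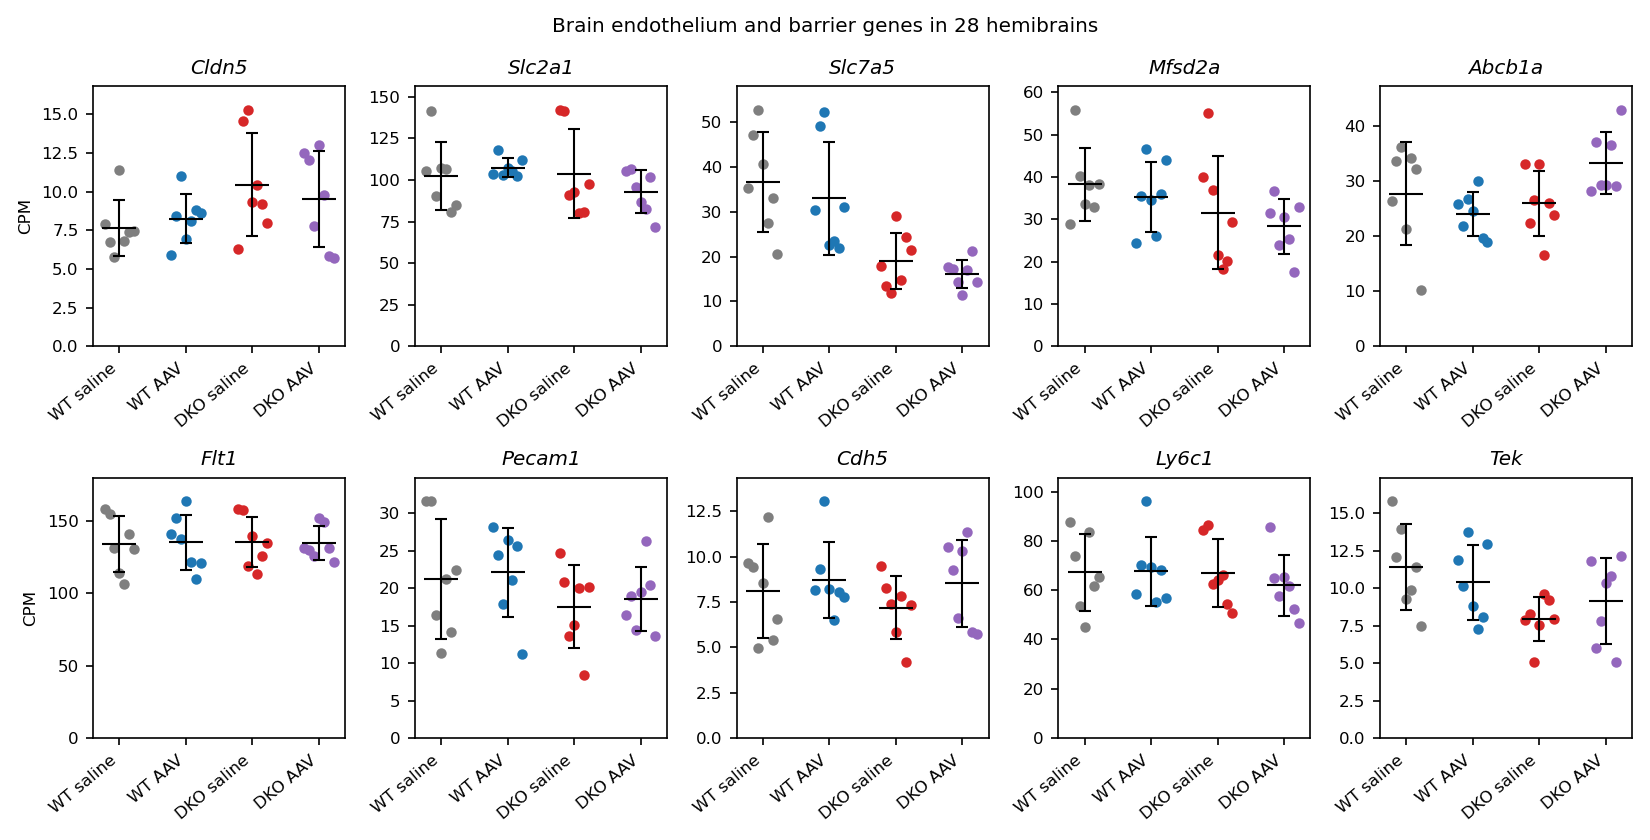
CPM of the 10 genes in each of 28 hemibrains, by group; points are mice, and the black marks are group means with SD (n = 7). Both DKO groups sit low for Slc7a5, with means of 19.0 and 16.2 CPM against 36.6 and 33.0 in the WT groups, while for the other 9 genes the points of all 4 groups overlap.

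The saline groups were compared to ask what loss of Grn and Tmem106b did to these transcripts. Of the 10 genes, 1 passed the test, Slc7a5, which fell; in this comparison 6.90% of the 11123 tested genes passed, and 3.27% of the tested genes passed in the lower direction. The share of members that passed is not far from that background. The median log2 difference of the 10 genes was -0.07, against 0.003 for all tested genes. In bulk tissue, fewer endothelial cells, less RNA per cell and a change in other cells that make the same transcripts cannot be told apart.

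Slc7a5 (ENSMUSG00000040010, chromosome 8, 121881150 to 121907694, minus strand, GRCm38) carries leucine, phenylalanine and other large neutral amino acids, as well as thyroid hormone and L-DOPA, across the endothelium of brain vessels. In WT saline mice it ran from 20.5 to 52.7 CPM with a median of 35.2. In DKO saline mice it ran from 11.9 to 29.1 CPM with a median of 17.9. The groups overlapped, since 3 DKO saline mice lay above the lowest WT saline mouse. The fitted log2 difference was -0.95 ± 0.19 (SE; 95% interval -1.35 to -0.55; edgeR's quasi-likelihood test, Benjamini-Hochberg adjusted p = 0.00193), or 0.518 of the WT level.

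The same was asked in the treated mice, which share no animal with the saline groups. Slc7a5 ran from 21.98 to 52.2 CPM with a median of 30.4 in WT AAV mice, and from 11.4 to 21.1 CPM with a median of 17.0 in DKO AAV mice. Here the groups did not overlap, as was the case for 0.719% of tested genes in the downward direction. The log2 difference was -1.01 ± 0.20 (edgeR adjusted p = 0.00162), in a comparison in which 1 of the 10 genes and 5.92% of all tested genes passed, and 3.96% of the tested genes passed in the lower direction. This comparison was added after the data had been seen.

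Slc7a5 was lower in DKO than in WT mice in 4 of 4 batches, in saline and in treated mice. Within batches 1 to 4 the difference of mean log2 CPM was -0.92, -1.80, -1.39 and -0.24 among saline mice. Among treated mice it was -0.73, -1.61, -0.94 and -0.56. Batch 4 gave the smallest difference in both, and it held 4 of the 7 DKO saline mice, which were the only mice of 16 weeks in that batch. Without batch 4 the saline log2 difference was -1.48 (adjusted p = 0.000149), and without batch 2 it was -0.72 (adjusted p = 0.0489). Among treated mice the difference no longer passed without batch 2, at -0.76 (edgeR adjusted p = 0.0502). The within-batch differences carry no term for sex and rest on few mice, 1 DKO against 1 WT in batch 1. In batch 2 the treated DKO mice were 2 females and the treated WT mice 2 males, so sex and genotype cannot be told apart there. Batch values of the other genes below also rest on so few mice and carry no term for sex.

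**Figure D2:**
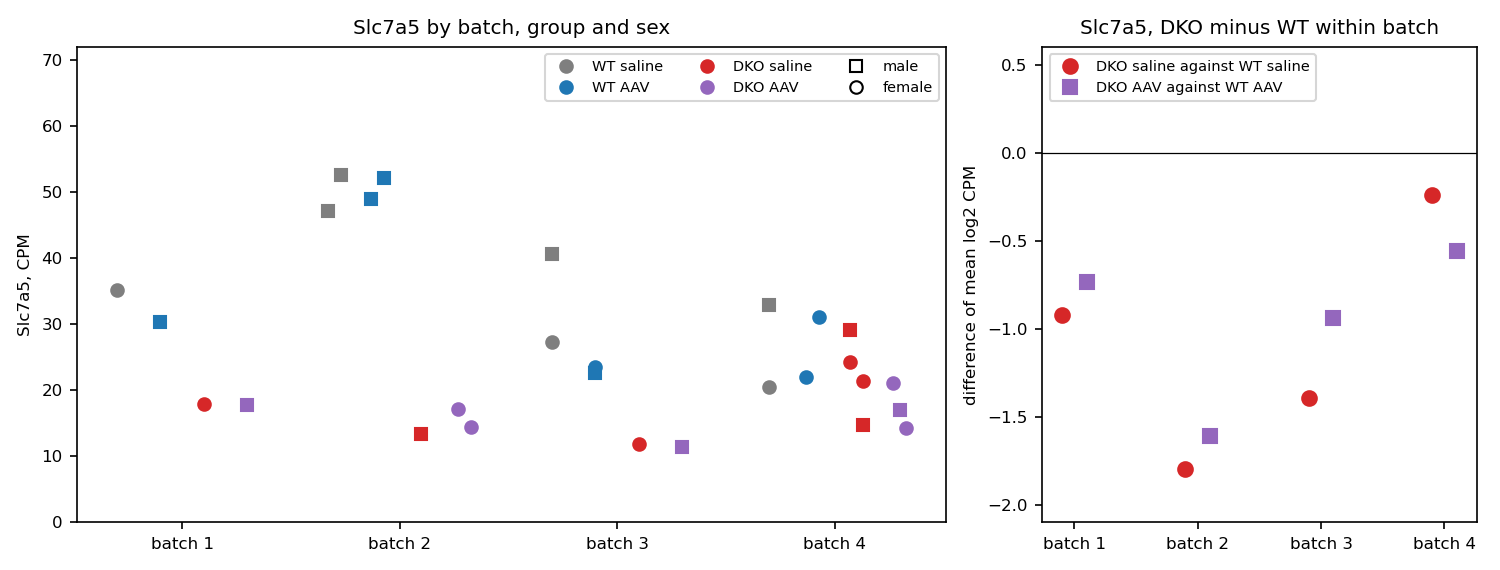
Left, Slc7a5 in CPM for each mouse, by batch, group (colour) and sex (square, male; circle, female). Right, the difference of mean log2 CPM between DKO and WT within each batch, for saline and for treated mice, without a term for sex. All 8 points lie below 0, from -1.80 to -0.24, and those of batch 1 rest on 1 mouse a side.

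Split by sex, which was also added after the data had been seen, the saline difference was -1.27 ± 0.27 in males (adjusted p = 0.00488) and -0.64 ± 0.28 in females (adjusted p = 0.369). Female minus male, the difference of these effects was 0.62 ± 0.38 (edgeR adjusted p = 0.696). Among treated mice the values were -1.20 ± 0.29 in males (adjusted p = 0.0296) and -0.80 ± 0.30 in females (adjusted p = 0.314), and their difference was 0.40 ± 0.44 (adjusted p = 0.999). The genotype effects of the sexes were not shown to differ.

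Vector treatment gave no called change of Slc7a5. It differed by -0.24 ± 0.21 between DKO AAV and DKO saline mice (95% interval -0.66 to 0.18; edgeR adjusted p = 0.547), and by -0.18 ± 0.18 between the WT groups (adjusted p = 0.9997). The treatment effects of the genotypes differed by -0.06 ± 0.27 (95% interval -0.61 to 0.49; adjusted p = 0.952). Against WT saline, DKO AAV mice stood at -1.19 ± 0.19 (adjusted p = 0.000308). That comparison shares its WT saline libraries with the saline comparison above.

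The Slc7a5 protein works as a pair with the heavy chain 4F2hc, coded by Slc3a2. Slc3a2 averaged 133 ± 10.1 CPM in saline and 122 ± 23.7 in treated WT mice, and 130 ± 20.4 and 129 ± 11.3 in the matching DKO mice. Its log2 difference between the saline groups was 0.01 ± 0.09 (edgeR adjusted p = 0.955). There were 27.4 ± 7.51 Slc7a5 tags per 100 Slc3a2 tags in WT saline mice and 26.6 ± 6.69 in WT AAV mice, against 14.9 ± 5.14 in saline and 12.6 ± 2.47 in treated DKO mice (SD, n = 7 each).

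Other cells of the tissue moved with genotype as well. Of 10 microglial markers, 7 rose in DKO saline mice, and their summed level ran from 586.6 to 929.6 CPM in WT saline and from 1080 to 2097 CPM in DKO saline mice. All 5 tested reactive astrocyte genes of 10 listed rose, with sums of 189.7 to 302.4 and 519.5 to 1782 CPM. Of 10 genes of astrocytes and their endfeet, Aqp4 and Mlc1 rose, Aqp4 by 0.96 ± 0.14 (edgeR adjusted p = 2.25e-05), with list sums of 8258 to 10140 and 8741 to 10380 CPM. Of 10 neuronal markers, Rbfox3 and Nefl fell, the direction of Slc7a5, by 0.46 ± 0.11 (edgeR adjusted p = 0.00764) and 0.44 ± 0.11 (adjusted p = 0.00993). The list sums were 4785 to 5724 and 4453 to 5638 CPM. The log2 differences of the 10 neuronal markers ran from -0.46 to 0.24, with a median of -0.02. Between the treated groups, where Slc7a5 also fell, their median was 0.15, from -0.37 to 0.44. There 1 of them passed, Map2, which was lower (edgeR adjusted p = 0.0433), a call lost under 21 of 43 alternatives. With log2 RNA concentration as a term the saline difference of Slc7a5 was -0.82 (adjusted p = 0.0491), with RIN as a term -0.92 (adjusted p = 0.00305), and without the 3 libraries of low striatal or cerebellar genes -0.75 (adjusted p = 0.0191). The part of neurons, microglia, astrocytes or mitochondrial content in the Slc7a5 result was not tested.

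The other 9 genes passed in none of the comparisons. Leaving Slc7a5 out, the fitted log2 differences ran from -0.55 to 0.59 between the saline groups and from -0.30 to 0.48 between the treated groups. Their standard errors ran from 0.09 to 0.23 in the saline comparison. A fall of the size seen for Slc7a5 lay outside the 95% interval of each of these genes between the saline groups, except that the lower bound of Tek, -0.96, reached it.

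**Figure D3:**
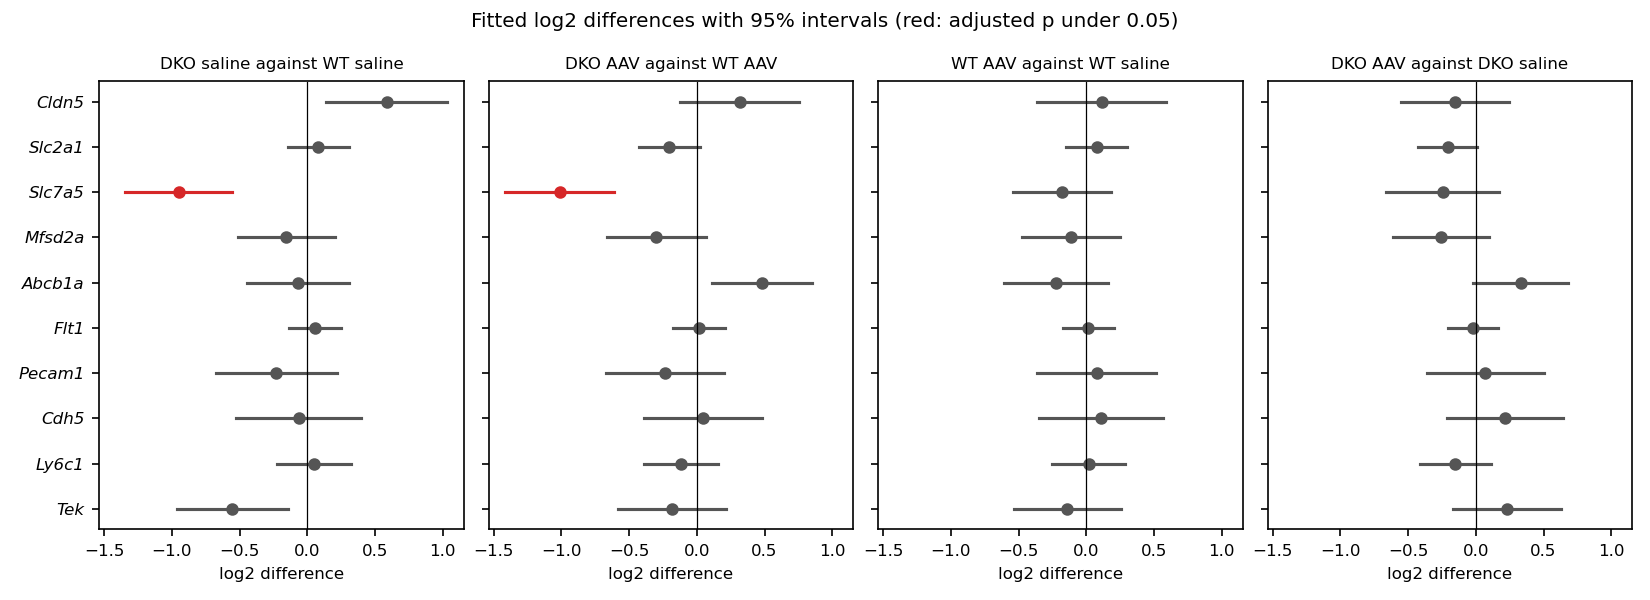
Fitted log2 differences of the 10 genes with 95% intervals in 4 comparisons of groups of 7 mice; red marks an adjusted p under 0.05. Slc7a5 is the only red point, at -0.95 and -1.01 in the genotype comparisons, and in both treatment comparisons the intervals of all 10 genes include 0.

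Among the junction genes, Cldn5 (ENSMUSG00000041378, chromosome 16, 18776847 to 18778260, plus strand) ran from 5.76 to 11.4 CPM with a median of 7.40 in WT saline and from 6.32 to 15.3 CPM with a median of 9.31 in DKO saline mice. WT AAV mice had 5.93 to 10.99 CPM with a median of 8.44, and DKO AAV mice 5.73 to 13.0 CPM with a median of 9.80. All 4 groups overlapped, and the highest values came from DKO mice. The saline log2 difference was 0.59 ± 0.22 (edgeR adjusted p = 0.104), which did not pass; it was positive in 3 of 4 batches, from -0.27 to 1.07. With library totals in place of TMM factors, which move the median of all genes by 0.12 on the log2 scale, its adjusted p was 0.0370.

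Cdh5 and Pecam1, whose proteins join endothelial cells to each other below and beside the tight junction, gave no call. Cdh5 (ENSMUSG00000031871, chromosome 8, 104101625 to 104144511, plus strand) averaged 8.10 ± 2.61, 8.71 ± 2.08, 7.19 ± 1.72 and 8.52 ± 2.40 CPM in WT saline, WT AAV, DKO saline and DKO AAV mice, and its saline log2 difference was -0.06 ± 0.23 (edgeR adjusted p = 0.912). Pecam1 (ENSMUSG00000020717, chromosome 11, 106654217 to 106750628, minus strand) averaged 21.3 ± 8.04, 22.1 ± 5.93, 17.6 ± 5.50 and 18.5 ± 4.30 CPM in the same order. Its saline difference of -0.23 ± 0.22 (adjusted p = 0.597) was negative in 4 of 4 batches, from -0.34 to -0.13, and did not pass. For Cdh5, 5 to 22 tags a library limit what could be seen.

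Of the transporters, Slc2a1 (ENSMUSG00000028645, chromosome 4, 119108711 to 119137983, plus strand) brings glucose into the brain and gave no call, with a saline log2 difference of 0.08 ± 0.11 (95% interval -0.14 to 0.31; edgeR adjusted p = 0.726). It ran from 80.7 to 141 CPM in saline and 103 to 118 in treated WT mice, and from 80.2 to 142 in saline and 71.7 to 107 in treated DKO mice. Between DKO AAV and DKO saline mice it differed by -0.21 ± 0.11 (adjusted p = 0.291), negative in 4 of 4 batches but short of the threshold; in that comparison 0 of the 10 genes passed, against 3.02% of all genes, and at an unadjusted p under 0.05 again 0 of the 10, against 19.1% of all genes.

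Mfsd2a (ENSMUSG00000028655, chromosome 4, 122946850 to 122961188, minus strand), whose carrier also holds back vesicle transport across brain endothelium, averaged 38.3 ± 8.67, 35.3 ± 8.28, 31.6 ± 13.3 and 28.3 ± 6.46 CPM in WT saline, WT AAV, DKO saline and DKO AAV mice. Within DKO saline it ran from 18.3 to 55.0 CPM, the widest relative spread of any member in any group (coefficient of variation 42.1%). This spread went with batch. The 4 DKO saline mice of batch 4 ran from 18.3 to 29.4 CPM, and those of batches 1 to 3 from 36.8 to 55.0 CPM. Within batches 1 to 4 the saline difference of mean log2 CPM was 0.45, 0.21, 0.04 and -0.66. What set batch 4 apart was not tested. The fitted log2 difference over all batches was -0.16 ± 0.18 between the saline groups (edgeR adjusted p = 0.660). It was -0.41 ± 0.18 between DKO AAV and WT saline mice (adjusted p = 0.192). Neither passed, and in the second comparison 1 of the 10 genes, Slc7a5, was called, against 5.25% of all genes (3.82% of all genes passed in the lower direction).

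Abcb1a (ENSMUSG00000040584, chromosome 5, 8660077 to 8748575, plus strand) codes for P-glycoprotein, which pumps drugs back into the blood. It ran from 10.3 to 36.2 CPM with a median of 32.3 in WT saline, from 19.0 to 30.0 with a median of 24.5 in WT AAV, from 16.6 to 33.2 with a median of 26.0 in DKO saline and from 28.3 to 43.0 with a median of 29.4 CPM in DKO AAV mice. DKO AAV mice reached the highest values, but their median lay under that of WT saline mice, and all groups overlapped. The log2 difference between the treated groups was 0.48 ± 0.18 (edgeR adjusted p = 0.107), positive in 4 of 4 batches. The treatment effects of the genotypes differed by 0.55 ± 0.25 (95% interval 0.04 to 1.07; adjusted p = 0.405). In that test 0 of the 10 genes and 0.0180% of all genes passed, and at an unadjusted p under 0.05 Abcb1a alone of the 10 did, against 11.4% of all genes. Abcb1b, the second P-glycoprotein gene of the mouse, had 3 to 20 tags a library and was not tested. The last 500 bases of Abcb1a share runs of at most 10 bases with any part of the Abcb1b transcripts.

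Among the receptors, Flt1 (ENSMUSG00000029648, chromosome 5, 147561604 to 147726011, minus strand) had the lowest residual spread of the 10 genes. It averaged 134 ± 19.3, 135 ± 18.9, 135 ± 17.6 and 135 ± 11.7 CPM in WT saline, WT AAV, DKO saline and DKO AAV mice. Its saline log2 difference was 0.05 ± 0.09, with a 95% interval of -0.14 to 0.25 (edgeR adjusted p = 0.793). Vector treatment moved it by -0.02 ± 0.09 in DKO mice and 0.02 ± 0.09 in WT mice, neither passing.

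Tek (ENSMUSG00000006386, chromosome 4, 94739289 to 94874976, plus strand), the receptor that binds angiopoietin 1 and 2, ran from 7.47 to 15.8 CPM with a median of 11.4 in WT saline and from 5.10 to 9.59 CPM with a median of 7.95 in DKO saline mice. WT AAV mice had 7.31 to 13.7 CPM and DKO AAV mice 5.10 to 12.2 CPM. DKO saline mice were low, but the groups overlapped. The saline log2 difference was -0.55 ± 0.20 (edgeR adjusted p = 0.0938), negative in 4 of 4 batches from -0.89 to -0.10, and it did not pass; over the 43 alternatives its adjusted p ran from 0.0595 to 0.356. Between the treated groups the difference was -0.19 ± 0.20 (adjusted p = 0.654).

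Ly6c1 (ENSMUSG00000079018, chromosome 15, 75044018 to 75048830, minus strand) averaged 67.3 ± 15.6, 67.8 ± 14.0, 67.0 ± 13.7 and 62.0 ± 12.4 CPM in the 4 groups in the same order, with a saline log2 difference of 0.05 ± 0.13 (edgeR adjusted p = 0.868). The last 500 bases of Ly6c1 share a run of 188 bases with some part of its near copy Ly6c2, a monocyte gene. Tags of the pair may therefore have been split, and Ly6c2 was listed at 0 to 5 tags a library.

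In WT mice the vector gave no called gene: 0 of the 10 genes and 0 of 11123 genes passed edgeR's test, with 254 genes (2.28%) at an unadjusted p under 0.05 and none of the 10 among them. By DESeq2 and limma-trend, too, none of the 10 passed. The fitted log2 differences of the 10 genes ran from -0.22 for Abcb1a to 0.11 for Cldn5. Females and males did not differ in a called way at any of the 10 genes either, in a comparison in which 0.0450% of genes passed and 4.02% were at an unadjusted p under 0.05, again with none of the 10; the differences ran from -0.28 for Tek to 0.05 for Mfsd2a.

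The 10 genes were not seen to vary as one block from mouse to mouse. After group, sex and batch were removed, the 45 pairs had a median Pearson r of 0.06 over 28 libraries, from -0.46 for Cldn5 with Abcb1a to 0.67 for Cdh5 with Ly6c1. That last pair was the 1 that passed (permutation p = 0.00011, adjusted over 45 pairs 0.00495). Its Spearman's rho was 0.607 (permutation adjusted p = 0.0346). Its r was 0.54 without WT saline replicates 3 and 5, the 2 libraries farthest from the median of Cdh5. WT AAV replicate 3, high for both genes, stayed in. The permutations treated the 28 residuals as independent although group, sex and batch had been fitted, so their p-values are somewhat too small. Slc7a5 stood at -0.33 with Pecam1, -0.33 with Mfsd2a and -0.28 with Ly6c1. Its highest r within the list was 0.48 with Abcb1a (permutation p = 0.011, adjusted p = 0.175, rho 0.360). That r was 0.22 without the 2 libraries farthest from the median of Slc7a5. The median r was -0.09 over the 9 pairs with Slc7a5 and 0.16 over the other 36. Cldn5 had 7 to 37 tags a library, Cdh5 5 to 22 and Tek 7 to 21, and counting noise at such depth pulls r toward 0. A low r of a pair with these genes therefore does not show that its genes vary apart in the tissue.

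**Figure D4:**
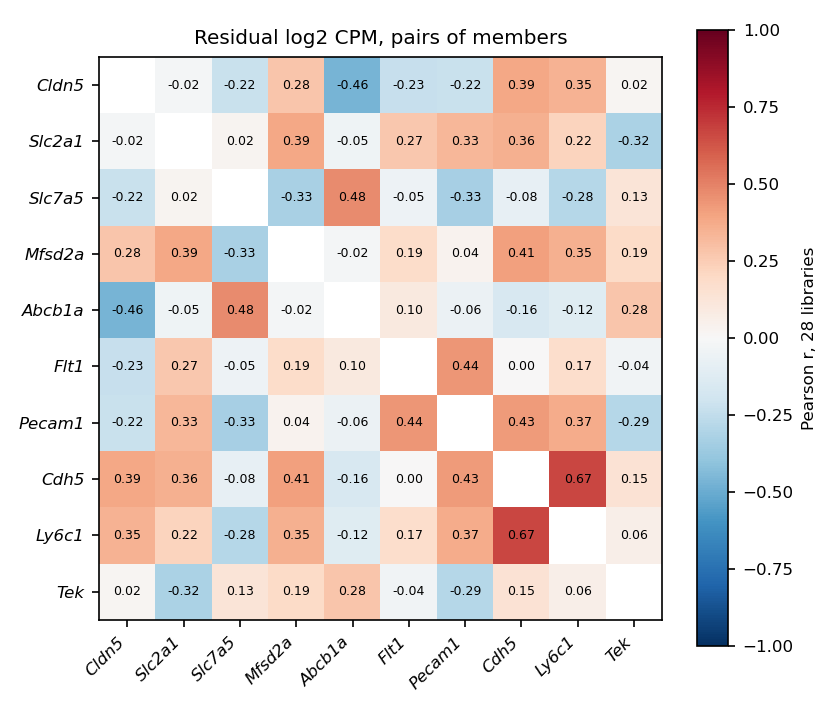
Pearson r of residual log2 CPM, after group, sex and batch, for each of the 45 pairs of the 10 genes over 28 libraries; red is positive and blue negative. Cdh5 with Ly6c1 is the darkest square at 0.67, and the row of Slc7a5 is mostly blue, down to -0.33.

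Over 11092 other tested genes with a mean of at least 5 CPM, those most like Slc7a5 in residual log2 CPM over the 28 libraries were Brd2 (r = 0.88), S1pr1 (0.85), Ncs1 (0.84), Jph4 (0.83) and Tspan7 (0.83). These values describe points that share a library and its scaling, and none of the 5 genes passed between the saline groups: Brd2 differed by -0.06 ± 0.17 (edgeR adjusted p = 0.868). The genes most like the mean of the other 9 members were St8sia1 (r = 0.71), Kcnd1 (0.70), Rnf126 (0.69), Pprc1 (0.68) and Dnajb12 (0.65). The residual SD of Slc7a5 was 0.33 on the log2 scale, against a median of 0.24 for the 200 genes nearest to it in level, and that of Pecam1 was 0.38 against 0.25, while Flt1 had 0.14 against 0.16.

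Further barrier genes were taken from lists of general knowledge. Of 12 other junction genes 10 were tested, and F11r, the gene of junctional adhesion molecule A, was the 1 that rose in DKO saline mice; the median log2 difference of the list was -0.09. F11r averaged 22.5 ± 3.96 CPM in saline and 25.2 ± 4.27 in treated WT mice, and 36.5 ± 7.77 and 27.0 ± 6.62 in the matching DKO mice, and every DKO saline mouse, from 29.4 CPM up, lay above the highest WT saline mouse at 28.1 (0.683% of genes did so). It rose by 0.76 ± 0.15 with genotype (edgeR adjusted p = 0.000991) and fell by 0.49 ± 0.13 between DKO saline and DKO AAV mice (adjusted p = 0.0392). The first call was lost without batch 2, and the second under 18 of 43 alternatives. F11r is also made by other cells, such as those of blood and epithelia, and 7 of 10 microglial markers rose in the first comparison and 6 fell in the second. Of 5 tested reactive astrocyte genes, 5 rose in the first and 4 fell in the second; the part of either cell type was not tested.

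Of 20 other transporters 16 were tested, with a median of 0.08. Slc16a1, the carrier of lactate and ketone bodies, rose in DKO saline mice by 0.64 ± 0.16 (edgeR adjusted p = 0.00950), from 24.7 ± 3.55 to 35.1 ± 11.8 CPM, with overlap between the groups. The call was lost without DKO saline replicate 2, without batch 2 and with group alone in the fit. Slco1c1, the thyroxine carrier of brain endothelium, fell by 0.40 ± 0.13 (adjusted p = 0.0493) from 33.1 ± 3.96 to 25.4 ± 4.10 CPM, a call lost under 35 of 43 alternatives.

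Ligands that act on these vessels were listed as well. Of 12 listed VEGF and angiopoietin ligands, related ligands and co-receptors, 7 were tested. Apln, the gene of the peptide apelin, ran from 80.7 to 131 CPM in saline and 89.0 to 121 in treated WT mice, and from 39.1 to 87.3 in saline and 47.4 to 80.2 in treated DKO mice. It fell with genotype by 0.86 ± 0.13 among saline mice (edgeR adjusted p = 5.22e-05) and by 0.91 ± 0.13 among treated mice (adjusted p = 4.62e-05), and kept its call under 43 of 43 alternatives in each. Apln is also made by neurons, so these tags are not endothelial alone.

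Angpt1, the angiopoietin that activates Tek, rose by 0.90 ± 0.21 among saline mice (edgeR adjusted p = 0.00777), from 12.4 ± 3.16 to 21.7 ± 6.25 CPM, and by 0.77 ± 0.22 among treated mice (adjusted p = 0.0344), from 10.8 ± 4.43 to 18.4 ± 3.36 CPM. The saline call was lost under 4 of 43 alternatives, among them without DKO saline replicate 2 and without batch 3, and the treated one under 14. Vegfb, a ligand of Flt1, averaged 140 ± 21.0 CPM in DKO saline and 106 ± 7.35 in DKO AAV mice, against 137 ± 14.6 and 133 ± 16.0 in WT saline and WT AAV mice. It fell by 0.40 ± 0.10 with treatment in DKO mice (edgeR adjusted p = 0.0239), a call lost under 11 of 43 alternatives. Vegfb was also called lower in DKO AAV mice than in WT AAV and in WT saline mice. These calls were lost under 22 and 15 of 43 alternatives.

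**Figure D5:**
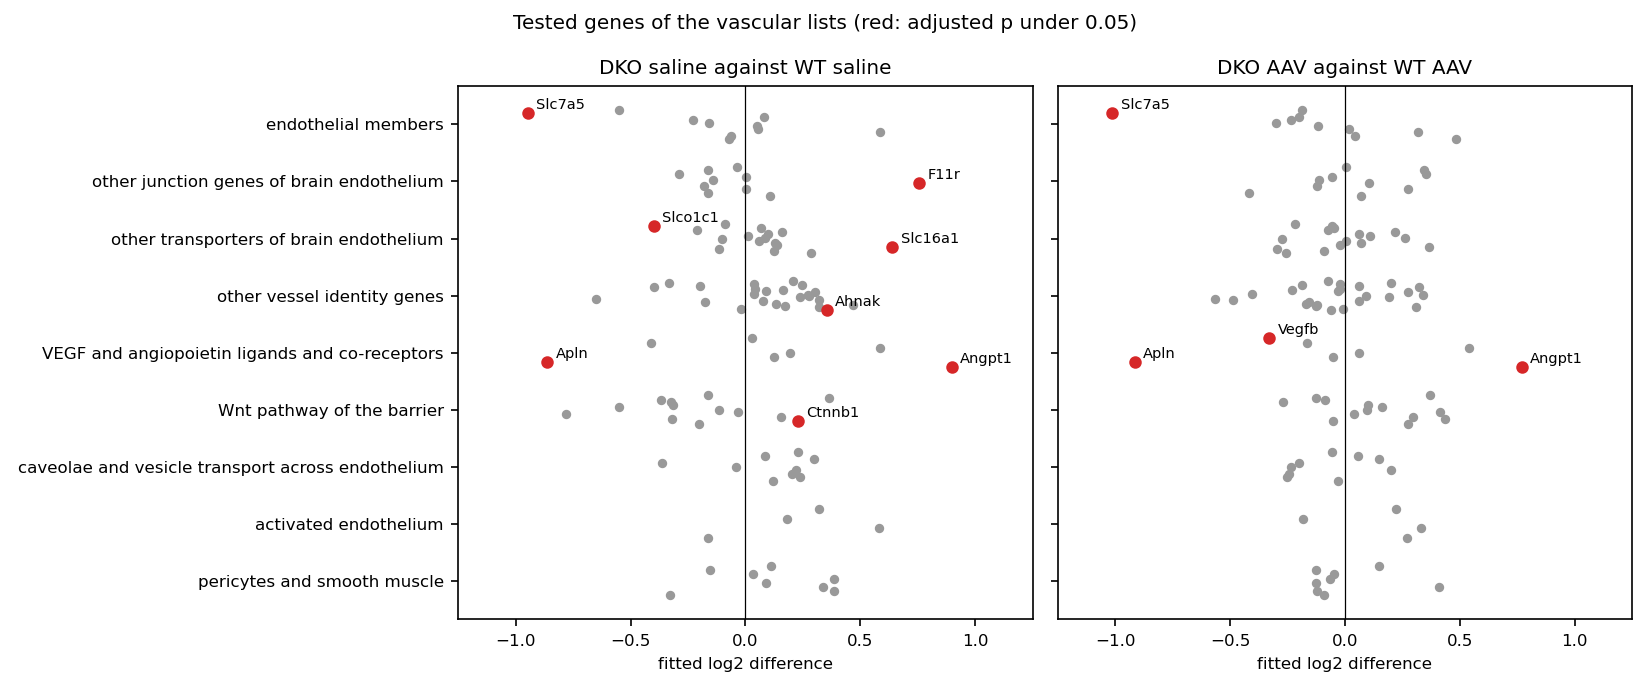
Fitted log2 differences of each tested gene of 9 vascular lists, between the saline groups (left) and between the treated groups (right); red and named are genes with an adjusted p under 0.05. Slc7a5 lies at -0.95 and -1.01, Apln at -0.86 and -0.91 and Angpt1 at 0.90 and 0.77 in the left and right panels.

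The remaining lists of the vessel wall and barrier held few calls. Of 24 tested vessel identity genes, Ahnak rose by 0.35 ± 0.10 between the saline groups (edgeR adjusted p = 0.0250), a call lost under 10 of 43 alternatives, among them without batch 2, 3 or 4 and without DKO saline replicate 2. Erg, an endothelial transcription factor gene, fell by 1.09 ± 0.23 between WT saline and DKO AAV mice (adjusted p = 0.00368), from 11.9 ± 2.61 to 5.59 ± 1.66 CPM. The Erg call was lost without batch 3 and by DESeq2. That comparison changes genotype and treatment together, and Erg passed in no comparison of genotype alone or treatment alone. Of 13 tested genes of the Wnt pathway that maintains the barrier, Ctnnb1 rose by 0.23 ± 0.07 in DKO saline mice (edgeR adjusted p = 0.0462). That call was lost under 31 of 43 alternatives, and the list median was -0.20, from -0.78 to 0.36. Tspan12 of this list was called lower in DKO AAV than in WT saline mice (adjusted p = 0.0305), a call lost under 14 of 43 alternatives. None of 9 tested caveolar and vesicle genes, 4 genes of activated endothelium and 8 of pericytes and smooth muscle passed between the saline groups, where the list medians were 0.20, 0.25 and 0.10 against 0.003 for all genes. Summed pericyte and smooth muscle markers ran from 350.3 to 450.1 CPM in WT saline and from 368.9 to 527.9 CPM in DKO saline mice, and the sum of the 10 endothelial genes from 394 to 566.8 and from 357.5 to 527.9 CPM. Of 6 tested genes of perivascular macrophages and blood leukocytes, Ms4a7 and Trac rose between the saline groups, with a list median of 0.89. Their calls were lost under 5 of 43 and 7 of 42 alternatives, among them without DKO saline replicate 2. Of 7 tested fibroblast genes, Col1a1 and Col1a2 were called higher in DKO AAV than in WT saline mice. Those calls were lost under 18 and 6 of 43 alternatives.

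Slc7a5 was also set beside other genes of amino acid handling. Of 8 tested large neutral amino acid and partner carriers, Slc7a10, a carrier of small neutral amino acids in astrocytes and neurons, fell in DKO saline mice by 0.56 ± 0.14 (edgeR adjusted p = 0.0140), from 40.6 ± 8.46 to 27.3 ± 5.46 CPM. That call was lost under 5 of 43 alternatives, among them without batch 1, 2 or 3. Slc7a6, a light chain that also pairs with 4F2hc, rose with treatment in DKO mice by 1.16 ± 0.26 (adjusted p = 0.0132), from 3.77 ± 1.22 to 8.20 ± 2.51 CPM, on 4 to 24 tags a library, and lost its call under 6 of 42 alternatives, among them without batch 2, 3 or 4, without DKO saline replicate 2 and by DESeq2. Of 13 tested genes of the amino acid response, which can raise Slc7a5 through the factor Atf4, none passed between the saline groups, with a median of 0.11. Atf4 itself differed by -0.07 ± 0.12 there (adjusted p = 0.782), and by -0.39 ± 0.11 between the treated groups (adjusted p = 0.0354), a call lost under 19 of 43 alternatives. Atf5, a related factor, was the other gene of the list that passed between the treated groups, where it fell by 0.68 ± 0.16 (adjusted p = 0.0124), from 56.1 ± 31.2 to 37.7 ± 14.0 CPM, a call lost under 5 of 43 alternatives. Between the saline groups Atf5 differed by -0.39 ± 0.17 (adjusted p = 0.162).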

How the data were processed

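RNA of 28 hemibrains was read as 3' tags (Lexogen QuantSeq FWD with unique molecular identifiers), per the labels' protocols. The submitters' processing notes name the genome GRCm38.p6 and, in no stated order, edgeR 3.40.2, R 4.2, STAR, FastQC 0.11.5 and MultiQC 1.0. No source used here names the counting program, the strand setting or the annotation release. The deposited counts per gene carry at most 2 significant digits, which changes values of 100 or more by up to 4.76%. The normalized signal sheet, CPM the authors scaled by library total and factor, served only for a limma-trend alternative. Normalization ratios of the deposited sample sheet were compared, and the RIN score is per the labels.

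edgeR 4.0.16 (R 4.3.3) fitted the deposited counts of the 11123 genes that filterByExpr kept (minimum count 10, minimum total 15), with TMM factors and group, sex and batch as terms over 28 libraries; quasi-likelihood p-values were Benjamini-Hochberg adjusted over all tested genes, with a threshold of 0.05. SE is the log2 difference divided by the root of F. CPM were computed from counts with TMM factors. Correlations used log2 CPM (prior count 2) with permutation tests of 1e+05 resamples. Alternatives used DESeq2 1.42.0, limma 3.58.1, other scalings, filters and terms, and left out each batch and library. Replicate numbers follow sample order and only name mice. The edgeR step was tested on simulated data.

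The members, lists and tests were chosen with earlier results of these data known. Named besides the members are paralogs and partners, up to 3 called genes of a list by p, and the 5 genes of highest correlation; some that the rule names are counted only. Of the 10 members, 4 overlap 7 other gene models, all with 0 tags. No sample column lay outside the series.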

Additional observations from a re-analysis of the deposited data

Results flagged for a closer look

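Of 40 sets of 7 mice (10 genes in 4 groups), 4 held a mouse whose gap to its nearest neighbour was a larger part of the set's range than Dixon's 95% critical value; chance gives about 1 in 20. Cldn5 stood at 11.4 CPM in WT saline replicate 4, while the rest of that group ran from 5.76 to 7.91. Mfsd2a stood at 55.9 CPM in WT saline replicate 2, against 29.0 to 40.3. WT AAV replicate 3 was high for both genes of the one correlated pair, Cdh5 at 13.0 CPM against 6.5 to 9.29 and Ly6c1 at 96.2 CPM against 55.2 to 70.1.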

How the results depend on the processing

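Slc7a5 kept its direction and its call under 43 of 43 alternatives between the saline groups (log2 -1.48 to -0.70) and between DKO AAV and WT saline mice (-1.47 to -1.05), and under 42 of 43 between the treated groups (-1.22 to -0.76). Of the 10 genes, 2 were called between the saline groups with library totals as scaling, Cldn5 being added at an adjusted p of 0.0370. Between the treated groups 2 were called with library totals and with no filter on low counts, where Abcb1a had adjusted p of 0.0373 and 0.0422, and 0 without batch 2. Leaving out single libraries left 1 gene called in each of these comparisons and 0 in each treatment comparison. Counts over all genes moved more: 243 to 1183 between the saline groups (767), 219 to 992 between the treated groups (659), 23 to 710 for treatment in DKO mice (336), 189 to 1217 between DKO AAV and WT saline mice (584), 0 to 156 for the difference of treatment effects (2), 3 to 20 for sex (5) and 0 to 10 for treatment in WT mice (0). With library totals 84.5% of the calls between the saline groups were higher, against 52.5%, and the median of all genes shifted to 0.12; changes are therefore given relative to TMM scaling. The median correlation of pairs ran from 0.03 to 0.21 over 38 alternatives. The causes were not tested. No paired analysis was possible because the labels give no replicate numbers that pair mice; batch, which holds all 4 groups each time, was a term of the fit instead. Depth limits Cldn5, Cdh5 and Tek most, at 5 to 37 tags a library, and RNA of whole hemibrain does not separate endothelium from the other cells that make the same transcripts.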
